A study of Mus musculus with 5 samples.

Results

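The Notch receptors Notch1, Notch2 and Notch3, the ligands Dll1, Dll3 and Jag1, the DNA-binding factor Rbpj and the targets Hes1, Hes5 and Hey1 were followed in mouse neural stem cells (NSCs) and in STO cells. These 10 genes were chosen by name as members of the Notch pathway, with earlier results of these data known. All 10 were listed among the 25414 genes of the deposited tables. RNA-seq was available for 2 NSC samples and 3 STO samples, and no agent, knockdown or genetic change was applied to either cell type. NSCs were primary cells from the E12.5 mouse cortex, kept for 5 to 8 passages as monocultures on poly-L-ornithine and laminin in medium with EGF, bFGF, heparin and B27. STO cells are a permanent line of SIM mouse embryonic fibroblasts, a feeder layer for germline stem cells, and were grown for more than 30 passages in DMEM with fetal bovine serum. The labels give the strain of both as C57BL/6. The paper names STO cells as derived from SIM mice and resistant to thioguanine and ouabain, so a shared strain is uncertain. The cell types therefore differed in origin, medium, substrate and passage together, and possibly in strain, and these cannot be told apart here. Nothing in the labels says that the replicates were separate cultures, so p-values measure the spread between these samples, which may be technical.

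Notch signalling passes between neighbouring cells. A ligand of the Delta (Dll) or Jagged (Jag) type on one cell binds a Notch receptor on the next, the receptor is cleaved by ADAM proteases and by gamma-secretase, and its intracellular domain joins RBPJ and Mastermind on DNA to switch on target genes. The best-known targets are repressors of the HES and HEY families, which hold down proneural genes. In the embryonic cortex this circuit keeps progenitors undifferentiated, with differentiating cells presenting Delta ligands to the progenitors around them.

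The libraries were judged first. The authors gave expression as FPKM (fragments scaled to the length of the transcript and to the size of the library), a level that can be compared between genes because it is per length. The values of a sample summed to between 385485 and 446393 FPKM. No read counts were used, and the fragments behind a value were taken from the width of its deposited confidence interval, which gave 15223341 to 22271895 fragments per sample. Pearson's r across 11712 genes was 0.994 between the NSC samples, 0.994 to 0.995 between the STO samples, and 0.578 to 0.585 between cell types. The neural stem cell markers Sox2, Sox1, Nes, Pax6, Olig2 and Fabp7 were all above 5 FPKM in both NSC samples, with Sox2 at 308 and 276 FPKM. All of them but Nes were listed at 0 in every STO sample, where Nes was at 0.0380 to 0.0724 FPKM. The 7 fibroblast markers were all at 1 FPKM or more in every STO sample, with a sum of 1409 to 1516 FPKM against 5.19 to 5.42 FPKM in NSCs, where Fn1 was the 1 marker at that level and Col3a1 was listed at 0. The labels of the 5 libraries therefore fitted their markers.

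RefSeq promoters show what the targets carry in front of their start sites. The table held 300-base promoters (GRCm38.p6, from 250 bases before to 50 bases after the start) for 8 of the 10 members, 10 promoters in all, and Hes1 and Hey1 had no entry. The letters searched on both strands were TGGGAA, the core that RBPJ is known to bind, and the longer GTGGGAA, which contains it. Those printed were chosen after the matches were seen. The promoters of Hes5 (chr4:154960673-154960972, plus strand) and of its relative Hey2 (chr10:30842734-30843033, minus strand) are shown because each holds GTGGGAA once on either strand. The upstream promoter of Rbpj (chr5:53590096-53590395, plus strand) holds the shorter core once on either strand, and that of the ligand Dll3 (chr7:28301736-28302035, minus strand) holds neither. Hey2 and Nrarp, a further Notch target, were searched although they are not members. The Nrarp promoter, not printed, holds neither the core nor the longer form. Capitals mark the matches, written as TTCCCA or TTCCCAC where they lie on the other strand.
Hes5: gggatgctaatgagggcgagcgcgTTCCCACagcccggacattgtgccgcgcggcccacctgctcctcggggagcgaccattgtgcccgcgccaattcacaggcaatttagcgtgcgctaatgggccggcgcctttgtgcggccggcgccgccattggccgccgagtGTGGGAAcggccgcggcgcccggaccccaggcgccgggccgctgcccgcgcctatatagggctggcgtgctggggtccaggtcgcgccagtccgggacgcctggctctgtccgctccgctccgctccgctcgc
Hey2: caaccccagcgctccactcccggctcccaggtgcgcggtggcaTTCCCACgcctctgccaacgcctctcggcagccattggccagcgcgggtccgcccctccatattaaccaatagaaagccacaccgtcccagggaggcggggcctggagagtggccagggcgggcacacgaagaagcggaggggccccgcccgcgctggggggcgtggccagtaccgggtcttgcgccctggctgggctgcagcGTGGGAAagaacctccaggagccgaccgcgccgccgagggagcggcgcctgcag
Rbpj: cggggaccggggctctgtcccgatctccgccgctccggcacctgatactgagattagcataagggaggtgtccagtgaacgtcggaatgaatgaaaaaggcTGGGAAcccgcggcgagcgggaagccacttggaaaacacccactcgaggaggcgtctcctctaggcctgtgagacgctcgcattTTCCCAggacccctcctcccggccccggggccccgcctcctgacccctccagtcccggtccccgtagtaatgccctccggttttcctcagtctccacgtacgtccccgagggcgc
Dll3: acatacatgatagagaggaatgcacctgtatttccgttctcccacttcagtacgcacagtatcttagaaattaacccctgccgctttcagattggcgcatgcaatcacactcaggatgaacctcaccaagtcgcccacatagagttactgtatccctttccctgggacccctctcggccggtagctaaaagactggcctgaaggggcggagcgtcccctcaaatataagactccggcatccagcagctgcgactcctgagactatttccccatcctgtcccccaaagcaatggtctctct

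In Hes5 the matches to GTGGGAA began at positions -226 and -83 from the start site, and in Hey2 at -207 and -4. Among all 32851 promoters of the table, 6.383% held GTGGGAA at least once and 0.1005% held it once or more on both strands. The shorter TGGGAA stood in 25.56% of promoters, and in 1.808% on both strands, as in the upstream promoter of Rbpj. Among the 8 members with a promoter it was found in Hes5 and Rbpj, and not in Notch1, Notch2, Notch3, Dll1, Dll3 or Jag1. The HES N-box, searched as CACNAG, was found in the promoters of Notch1, Notch2 and Notch3 and in 1 of the 2 of Dll1, against 42.48% of all promoters. The E-box CACGTG, present in 7.15%, was found in no member promoter. Outside the members, the promoter of Nrarp held both CACNAG and CACGTG, and that of Hey2 held neither. A match describes these letters only and does not show that a factor bound there.

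All 10 members changed between the cell types. Each was compared by limma on log2(FPKM + 1) in a fit over the 12292 genes whose mean reached 1 FPKM in either cell type. P-values were adjusted over all of them by the Benjamini-Hochberg method, and 0.05 was the limit. Of the 10 members, 3 were higher in STO cells (Notch2, Notch3 and Rbpj) and 7 were lower (Notch1, Dll1, Dll3, Jag1, Hes1, Hes5 and Hey1). These cell types are so far apart that 85.6% of all tested genes passed, with 41.9% higher and 43.7% lower in STO cells, so that passing the test sets no member apart. The values of the cell types did not overlap for any member, as for 89.9% of all tested genes. With a difference of at least 1 on the log2 scale also required, 2 members were higher and 6 lower, where the same rule called 38.4% of all tested genes, 17.1% higher and 21.3% lower. The median difference over the 10 members was -1.76, against -0.023 over all tested genes. Dll1, Dll3, Hes5 and Hey1 entered the fit through their NSC values alone and so had to differ. In bulk RNA, fewer cells that express a gene and less of its RNA in each cell cannot be told apart. The sizes of the differences, which ranged from 1.33-fold for Jag1 to levels at or near 0 on the STO side, and the differences among members of 1 role, are therefore described below.

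**Figure D1:**
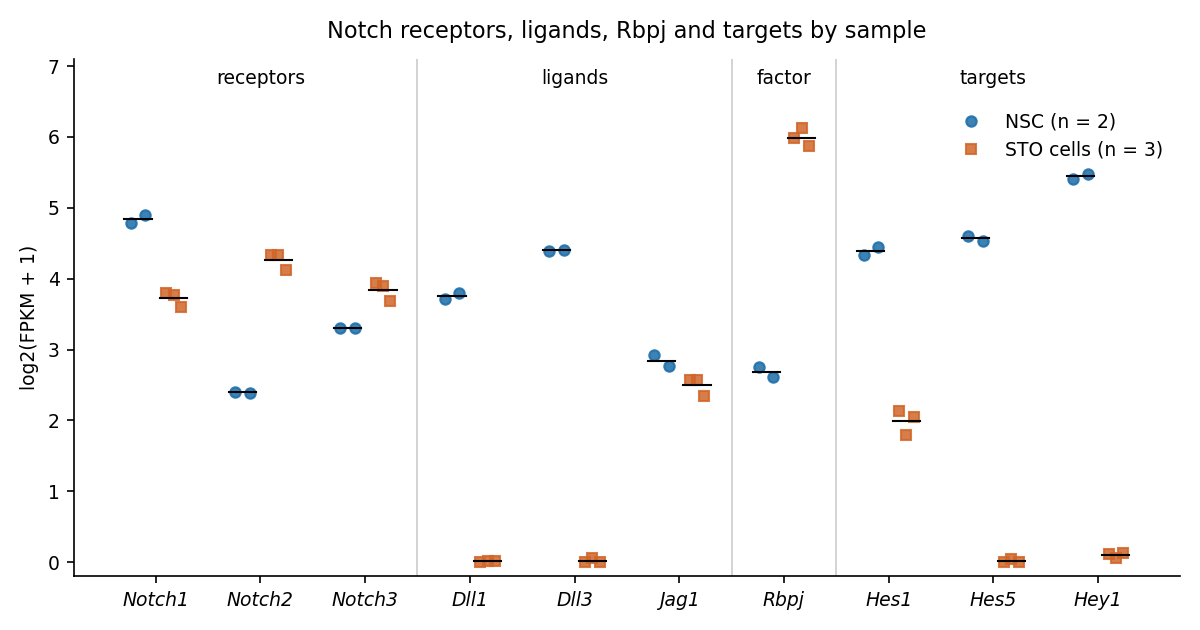
Level of each Notch pathway gene in every sample as log2(FPKM + 1), with circles for the 2 NSC samples, squares for the 3 STO samples and a black line for the mean of each cell type. The receptors stayed well above 0 in both cell types, Dll1, Dll3, Hes5 and Hey1 lay near 0 in every STO sample, and Rbpj was the highest of the 10 genes in STO cells.

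The receptors were expressed in both cell types, but in a different order. Notch1, the receptor most studied in cortical progenitors (mm9 chr2:26313422-26359342, minus strand), was at 26.7 and 28.8 FPKM in NSC replicates 1 and 2 and at 12.8, 12.7 and 11.2 FPKM in STO replicates 1, 2 and 3. Both NSC values were above every STO value, by 2.27-fold on average (27.7 ± 1.53 against 12.2 ± 0.918 FPKM, SD, n = 2 and 3). On the log2(FPKM + 1) scale the difference was -1.12 ± 0.077 (SE, limma adjusted p = 1.7e-05). At its 3′ end the Notch1 locus overlaps 0610009E02Rik, and it contains Mir6996, both listed at 0 in all samples.

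Notch2 went the other way. This receptor gene (mm9 chr3:97817461-97954290, plus strand) was at 4.29 and 4.22 FPKM in the NSC samples and at 19.3, 19.2 and 16.4 FPKM in the STO samples. The STO mean of 18.3 ± 1.61 (SD, n = 3) was 4.30-fold the NSC mean of 4.26 ± 0.050 (SD, n = 2), and the lowest STO sample lay far above both NSC samples. The difference was 1.87 ± 0.081 on the log2(FPKM + 1) scale (SE, limma adjusted p = 1.8e-06).

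Notch3, a receptor known from vascular smooth muscle and pericytes (mm9 chr17:32257838-32303797, minus strand), was at 8.91 and 8.89 FPKM in NSCs and at 14.3, 13.8 and 11.9 FPKM in STO cells. All STO values were above both NSC values, with means of 13.4 ± 1.27 and 8.90 ± 0.012 FPKM (SD, n = 3 and 2), which was the smallest difference of the receptors (0.53 ± 0.084 on the log2(FPKM + 1) scale, SE, limma adjusted p = 0.0011). The 6 pericyte and smooth muscle markers summed to 27.3 to 28.8 FPKM in NSCs and to 66.0 to 72.3 FPKM in STO cells. They did not move together, as Acta2, Tagln and Myh11 were higher in STO cells and Cspg4, Rgs5 and Kcnj8 in NSCs. Cspg4 was at 24.8 and 26.3 FPKM in NSCs and at 4.09 to 4.44 FPKM in STO cells. Acta2 was at 2.06 and 2.09 FPKM in NSCs and at 46.2 to 51.2 FPKM in STO cells. Of the 6 markers, 2 in NSCs and 3 in STO cells were at 1 FPKM or more in every sample. Tagln was listed at 0 in NSCs and Kcnj8 in STO cells. The part of these markers in the Notch3 value was not tested.

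Set against each other within a sample, which removes the scaling of the sample, the receptors changed places. Notch1 made up 66.9% and 68.7% of the summed FPKM of the 3 receptors in the NSC samples and 27.7%, 27.7% and 28.3% in the STO samples. Notch2 went from 10.8% and 10.1% to 41.5%, 42.0% and 41.6%, and Notch3 from 22.4% and 21.2% to 30.8%, 30.3% and 30.2%. In NSCs the order was therefore Notch1, Notch3, Notch2, with no overlap between neighbours. In STO cells Notch2 was highest, and the levels of Notch3 (11.9 to 14.3 FPKM) and Notch1 (11.2 to 12.8 FPKM) overlapped between samples. There were 1.47 to 1.52 FPKM of Notch2 for each FPKM of Notch1 in STO cells, against 0.161 and 0.147 in NSCs. An exact two-sided permutation test of each share over 2 against 3 samples gave p = 0.2, the smallest it can give, so it cannot pass 0.05.

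The summed receptor level hardly differed. It was 39.9 and 41.9 FPKM in the NSC samples and 46.4, 45.7 and 39.5 FPKM in the STO samples, with means of 40.9 ± 1.46 (SD, n = 2) and 43.9 ± 3.79 (SD, n = 3), and the ranges overlapped. The remaining receptor, Notch4, known mainly from endothelium, was at 0.149 and 0.145 FPKM in NSCs and at 0.0738, 0.0527 and 0.101 FPKM in STO cells, below the level required for testing. The 6 endothelial markers summed to at most 0.540 FPKM in NSCs and 0.576 FPKM in STO cells, and none reached 1 FPKM in all samples of either.

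**Figure D2:**
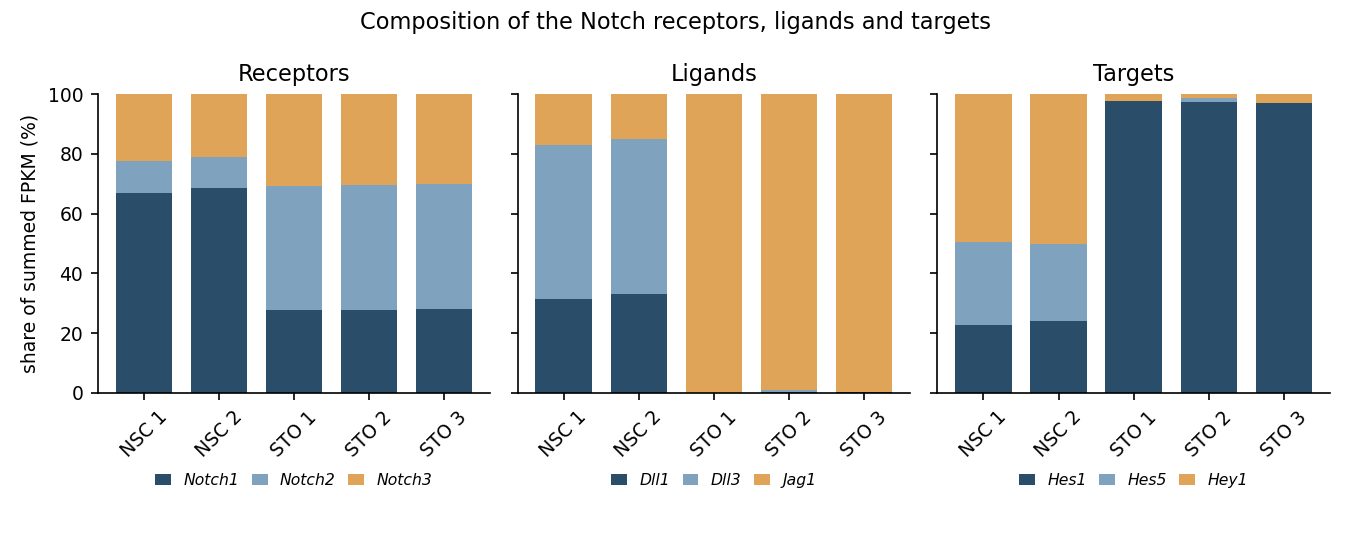
Stacked bars of the share (%) that each gene takes of the summed FPKM of its role in each of the 5 samples, for receptors, ligands and targets. Notch1 takes 66.9% to 68.7% of the receptors in NSCs and 27.7% to 28.3% in STO cells, and in STO cells Jag1 and Hes1 take nearly all of the ligand and target bars.

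Of the ligands, the Delta-like genes were at or near 0 in STO cells and Jag1 was kept. Dll1, which activates Notch on neighbouring cells (mm9 chr17:15504318-15512787, minus strand), was at 12.1 and 12.9 FPKM in NSCs. In STO cells it was listed at 0, 0.0113 and 0.00849 FPKM, which came from 2 fragments over the 3 samples together. At the depth of these samples 3 fragments would have read as 0.0261 to 0.0376 FPKM, and values below that are too uncertain to give a level. The difference was -3.75 ± 0.050 on the log2(FPKM + 1) scale (SE, limma adjusted p = 1.1e-08). As the NSC values alone brought Dll1 into the fit, its direction was fixed by the minimum level.

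Dll3, a divergent ligand known to act within the cell rather than to activate receptors on others (mm9 chr7:29078574-29086804, minus strand), was the most abundant of the ligands in NSCs, at 19.9 and 20.2 FPKM. It was listed at 0, 0.0358 and 0 FPKM in STO cells, where the value above 0 came from 2 fragments. Values there below 0.0414 to 0.0598 FPKM, the worth of 3 fragments, are too uncertain to give a level. The difference was -4.38 ± 0.048 on the log2(FPKM + 1) scale (SE, limma adjusted p = 6.3e-09). As for Dll1, this direction was fixed by the minimum level.

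Jag1, the Jagged-type ligand (mm9 chr2:136907187-136942256, minus strand), was at 6.56 and 5.81 FPKM in NSCs and at 4.92, 4.96 and 4.06 FPKM in STO cells. The groups did not overlap, but the NSC mean was only 1.33-fold the STO mean (6.19 ± 0.536 against 4.65 ± 0.508 FPKM, SD, n = 2 and 3). Its difference of -0.35 ± 0.094 on the log2(FPKM + 1) scale passed the test (SE, limma adjusted p = 0.013), and it was the 1 member that lost its call under alternatives. The adjusted p was 0.14 without NSC replicate 1, 0.056 without NSC replicate 2 and 0.12 when samples were scaled to a common sum, with a range of 0.011 to 0.14 over all alternatives.

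Jag1 therefore took 17.0% and 14.9% of the summed FPKM of the 3 ligands in NSCs and 100%, 99.1% and 99.8% in STO cells (exact permutation p = 0.2, the smallest possible). Dll3 took 51.7% and 51.9% in NSCs, ahead of Dll1 at 31.3% and 33.2%. The summed ligand level was 38.6 and 39.0 FPKM in NSCs and 4.92, 5.01 and 4.07 FPKM in STO cells, 8.31-fold lower on average. Jag2, another Jagged ligand, was at 1.86 and 1.65 FPKM in NSCs and at 0.153, 0.0859 and 0.158 FPKM in STO cells, a 13.3-fold difference of means (-1.28 on the log2(FPKM + 1) scale). Since its NSC values alone brought it into the fit, its call as lower was fixed by the minimum level. Dll4, the ligand of sprouting vessels, was at 0.175 and 0.219 FPKM in NSCs and at 0.527, 0.448 and 0.514 FPKM in STO cells, higher in every STO sample but below the level required for testing. In STO cells Jag1 thus stood first among the 5 canonical ligands, followed by Dll4 and Jag2, with no overlap between these.

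Rbpj had the largest rise of the members. It encodes the DNA-binding protein through which all Notch receptors act, and which holds targets down with co-repressors when no receptor fragment is bound (mm9 chr5:53947018-54048684, plus strand). Its level was 5.74 and 5.09 FPKM in NSCs and 62.3, 68.8 and 57.4 FPKM in STO cells. Every STO value was far above either NSC value, and the ratio of means was 11.6 (62.8 ± 5.70 against 5.42 ± 0.456 FPKM, SD, n = 3 and 2). The difference of 3.31 ± 0.090 on the log2(FPKM + 1) scale (SE, limma adjusted p = 2.0e-07) was exceeded in size by 7.22% of the tested genes. In STO cells Rbpj was the highest of the 10 members and lay above 94.7% to 96.0% of all genes. In NSCs it was second from the bottom of the 10, above 65.8% and 67.4% of all genes.

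The Rbpj value was a sum over 5 RefSeq transcripts that share most of their sequence, 3 of which were listed at 0 in every sample. NM_001080927 was at 5.74 and 4.37 FPKM in NSCs and at 45.9, 48.4 and 40.7 FPKM in STO cells. NM_009035 was at 0 and 0.725 FPKM in NSCs and at 16.4, 20.3 and 16.7 FPKM in STO cells, where it made up 26.3%, 29.6% and 29.1% of the sum. The STO samples were thus higher for both transcripts, and the NSC samples disagreed on whether NM_009035 was present. How fragments were split between such transcripts is an estimate by Cufflinks, and with NM_001080927 alone the difference was 2.93 on the log2(FPKM + 1) scale. The RefSeq table also lists 3 Rbpj pseudogenes, with which reads may have been shared.

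**Figure D3:**
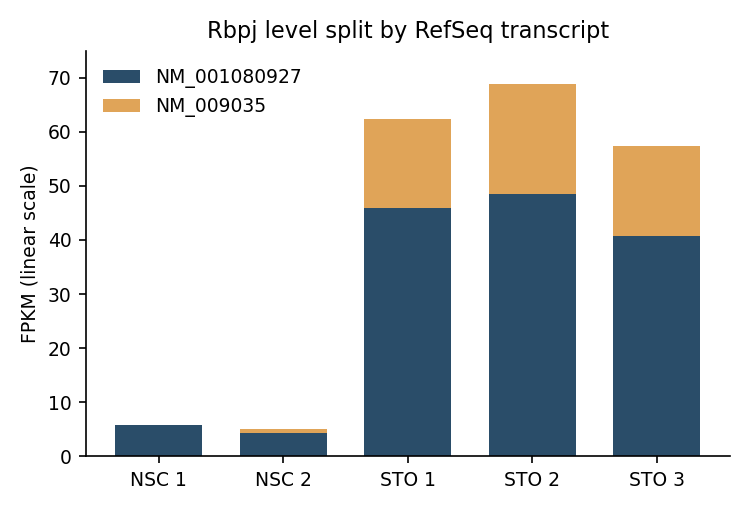
Stacked bars of the FPKM of the 2 Rbpj transcripts above 0 in each sample, on a linear scale that starts at 0. The sum was 5.74 and 5.09 FPKM in the NSC samples and 57.4 to 68.8 FPKM in the STO samples, and NM_009035 was 0 in NSC replicate 1.

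The targets were all lower in STO cells. Hes1, a repressor used by many tissues beyond the nervous system (mm9 chr16:30065443-30067882, plus strand), was at 19.2 and 20.9 FPKM in NSCs and at 3.39, 2.48 and 3.15 FPKM in STO cells. It was the one target clearly detected in both, from 91 to 157 fragments in each STO sample. The NSC mean of 20.1 ± 1.21 FPKM (SD, n = 2) was 6.67-fold the STO mean of 3.01 ± 0.472 FPKM (SD, n = 3), and the difference was -2.40 ± 0.11 on the log2(FPKM + 1) scale (SE, limma adjusted p = 2.3e-06).

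Hes5, the HES gene most tied to neural progenitors (mm9 chr4:154335032-154336480, plus strand), was at 23.3 and 22.2 FPKM in NSCs. It was listed at 0, 0.0304 and 0 FPKM in STO cells, with 1 fragment in the 3 samples together. Values below 0.0712 to 0.103 FPKM, the worth of 3 fragments, are too uncertain to give a level. The difference was -4.55 ± 0.051 on the log2(FPKM + 1) scale (SE, limma adjusted p = 6.5e-09). As the NSC values alone brought Hes5 into the fit, its direction was fixed by the minimum level. Its promoter is the member promoter printed above with GTGGGAA on both strands.

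Hey1, a HEY repressor of progenitors and vessels (mm9 chr3:8663359-8667038, minus strand), was the highest of the 10 members in NSCs, at 41.5 and 43.5 FPKM, above 92.2% and 92.4% of all genes. In STO cells it was at 0.0804, 0.0351 and 0.0923 FPKM, from 4, 2 and 7 fragments. Every STO sample was far below both NSC samples, by -5.35 ± 0.055 on the log2(FPKM + 1) scale (SE, limma adjusted p = 5.7e-09). Only the NSC values brought Hey1 into the fit, so its direction was fixed by the minimum level and is no result of the test. With STO values near 0, the size of the difference mostly gives the NSC level.

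Within the targets, Hey1 made up 49.4% and 50.3%, Hes5 27.7% and 25.6% and Hes1 22.9% and 24.1% of the summed FPKM in NSCs. In STO cells Hes1 made up 97.7%, 97.4% and 97.1% (exact permutation p = 0.2, the smallest possible). The summed target level was 83.9 and 86.6 FPKM in NSCs and 3.47, 2.54 and 3.24 FPKM in STO cells, 27.6-fold lower on average. For each FPKM of receptor there were 2.11 and 2.07 FPKM of target in NSCs and 0.0748, 0.0557 and 0.0820 in STO cells. For Rbpj this ratio ran the other way, with 0.144 and 0.121 FPKM for each FPKM of receptor in NSCs and 1.34, 1.51 and 1.45 in STO cells. By level, the order in NSCs was Hey1, Notch1, Hes5, Dll3, Hes1, Dll1, Notch3, Jag1, Rbpj and Notch2, in which Dll3 and Hes1 overlapped between samples. In STO cells it was Rbpj, Notch2, Notch3, Notch1, Jag1, Hes1 and Hey1, followed by Dll3, Hes5 and Dll1, in which Notch3 overlapped Notch1 and the last 4 genes overlapped their neighbours. So on the deposited scale the receptor tier had a similar sum in both cell types, while the ligand and target tiers were lower and Rbpj higher in STO cells. The low targets were seen in all 3 STO samples. By the approximate fragments, STO replicate 3 had 21952753 and NSC replicate 1 had 20587283. The part of depth in the target levels was not tested.

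**Figure D4:**
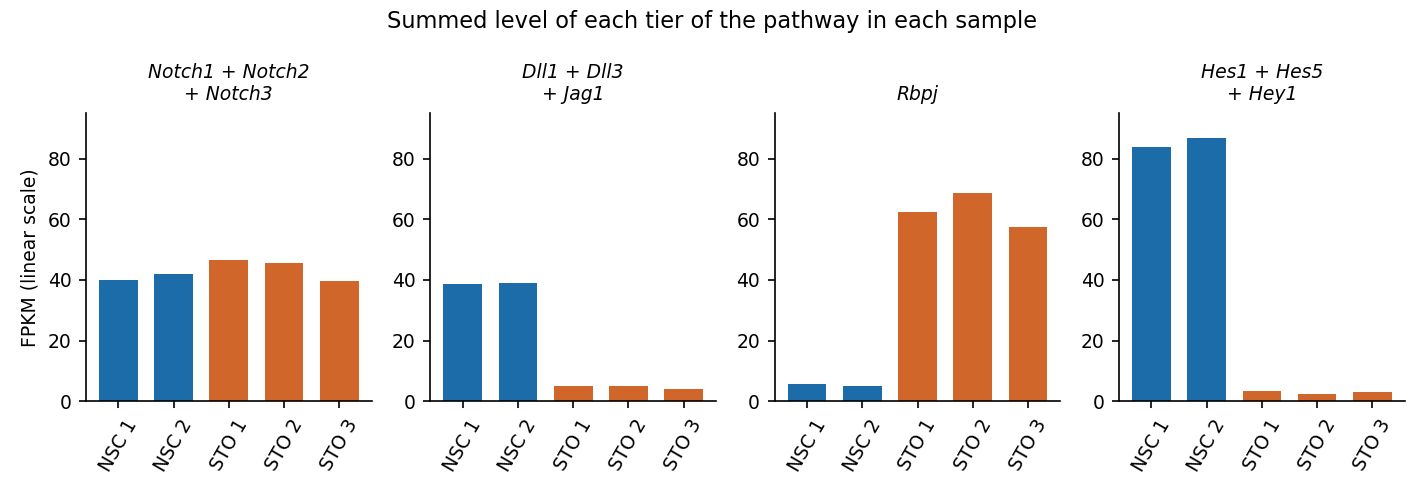
Bars of the summed FPKM of the receptors, of the ligands, of Rbpj and of the targets in each sample, on a shared linear scale that starts at 0. The receptor sum is 39.5 to 46.4 FPKM in all 5 samples, while the target sum is 83.9 and 86.6 FPKM in NSCs and 2.54 to 3.47 FPKM in STO cells.

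Genes used as markers of other neural cell types were also detected in the NSC samples, and whether other cells or the stem cells themselves made this RNA was not tested. The 5 astrocyte markers were all at 1 FPKM or more in both, with a sum of 81.3 to 81.5 FPKM against 24.9 to 29.3 FPKM in STO cells, where Gja1 alone reached that level. Gja1 went against the sum, at 10.9 and 10.1 FPKM in NSCs and 24.6 to 29.0 FPKM in STO cells. Of the 5 oligodendrocyte markers 4 did so, with a sum of 129 to 132 FPKM against 0.977 to 1.14 FPKM in STO cells, where Mag was listed at 0. Of the 7 neuronal markers 4 did so, with a sum of 119 FPKM in both against 12.3 to 12.8 FPKM in STO cells, where Rbfox3, Snap25, Neurod1 and Neurod6 were listed at 0. Tubb3, another neuronal marker, was at 9.25 and 8.14 FPKM in NSCs and 7.84 to 8.57 FPKM in STO cells, so the cell types overlapped. The 3 sums were higher in NSCs, as the ligand and target sums were, and their part in those values was not tested. The 5 microglia and blood markers summed to at most 0.0390 FPKM in NSCs, and the highest of them in STO cells, Csf1r, was at 0.150 to 0.203 FPKM.

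The other genes of the pathway were read from lists by role. Of 71 such genes, 58 passed the minimum level, of which 24 were higher in STO cells, 25 lower and 9 did not pass the test. Their median difference was -0.058 on the log2(FPKM + 1) scale, close to the -0.023 of all tested genes, and the shares called higher and lower were near the background of 41.9% and 43.7%. Jag2, Hey2, Nrarp, Mfng and Dtx1 reached the minimum level through their NSC values alone, and Dlk2 and Maml3 through their STO values alone, so the direction of each was fixed by that minimum and is no result of the test.

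Of 8 other HES, HEY and feedback genes, 3 reached the minimum level, and each was lower in STO cells. Nrarp and Hey2 reached it through their NSC values alone, as Dll1 did, so their direction was fixed by that minimum and Hes6 is the 1 of the 3 that could have gone either way. Nrarp, a direct Notch target that feeds back to dampen the receptor, was at 45.3 and 52.3 FPKM in NSCs, above every member, and was listed at 0 in all 3 STO samples, where 3 fragments would have read as 0.0347 FPKM in the deepest, replicate 3. Its difference was -5.63 on the log2(FPKM + 1) scale (limma adjusted p = 9.1e-09). Hey2, the relative of Hey1 whose promoter is printed above, was at 1.57 and 1.44 FPKM in NSCs and at 0.0175, 0 and 0.0115 FPKM in STO cells (-1.31, limma adjusted p = 4.9e-07). Hes6, which is known to oppose HES1 and not to be switched on by Notch, was at 35.9 and 34.0 FPKM in NSCs and at 9.73, 8.52 and 10.5 FPKM in STO cells (-1.77, limma adjusted p = 3.5e-06). Hes2, Hes3, Hes7, Heyl and Helt were all low, the highest value of any being 0.594 FPKM for Hes7 in NSC replicate 1.

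Of the 3 testable genes among the other receptors and ligands, Jag2 fell and Dlk1 and Dlk2 rose. Dlk1, a membrane protein related to Delta that lacks the receptor-activating domain and is imprinted, was at 1.84 and 1.79 FPKM in NSCs and at 242, 230 and 231 FPKM in STO cells. The STO mean was 129-fold the NSC mean (6.39 on the log2(FPKM + 1) scale, limma adjusted p = 5.1e-09). Dlk2, its paralogue, was at 0 and 1.39 FPKM in NSCs, which disagreed, and at 3.23, 3.63 and 4.54 FPKM in STO cells (1.63 on the log2(FPKM + 1) scale). The difference was 1.00 without NSC replicate 1 and 2.25 without NSC replicate 2, and 1 NSC library thus sets its size.

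Among the 6 genes of receptor glycosylation, 3 were higher, 2 lower and 1 did not pass. The Fringe enzymes, which tune receptors towards Delta ligands, gave the lower ones. Lfng was at 88.0 and 96.8 FPKM in NSCs and at 5.65, 5.05 and 5.51 FPKM in STO cells, a 17.1-fold difference (-3.87 on the log2(FPKM + 1) scale, limma adjusted p = 3.3e-08). Mfng was at 5.46 and 5.36 FPKM and at 0, 0 and 0.0159 FPKM (-2.67 on the log2(FPKM + 1) scale, with the NSC values alone above the minimum level). Rfng, the remaining Fringe, had a difference of -0.0082 (limma adjusted p = 0.90) and overlapped between the cell types. The O-glucosyltransferase gene Poglut1 and Eogt, which adds O-GlcNAc, were higher in STO cells by 1.30-fold and 3.94-fold. For Poglut1 the difference was 0.36 on the log2(FPKM + 1) scale for the sum of its transcripts and 1.07 for the top transcript only.

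All 4 genes of ligand ubiquitination, which lets the signal-sending cell pull on the ligand, had lower means in STO cells, and 3 passed the test. Neurl1a was at 6.80 and 7.57 FPKM in NSCs and at 1.23, 1.17 and 1.06 FPKM in STO cells, and Neurl1b differed by 2.79-fold and Mib2 by 2.19-fold. Mib1, which is needed for most ligand activity in mammals, had a difference of -0.26 that did not pass (limma adjusted p = 0.059).

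For receptor cleavage, 3 of 8 tested genes were higher and 4 lower. Furin, which processes the new receptor, was 3.70-fold higher in STO cells, and Adam17, a protease that can make the first cut after ligand binding, 2.14-fold higher. The gamma-secretase subunit genes Psenen and Aph1b were lower in STO cells, at 38.7 ± 4.15 against 77.4 ± 2.64 FPKM and 2.51 ± 0.156 against 5.96 ± 0.675 FPKM (SD, n = 3 and 2).

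Of 8 nuclear co-activators 5 were higher, 1 lower and 2 did not pass. The Mastermind genes split, with Maml1 2.85-fold higher (19.9 ± 0.466 against 7.01 ± 0.472 FPKM, SD, n = 3 and 2) and Maml3 11.9-fold higher in STO cells, while Maml2 was 2.38-fold lower (8.47 ± 0.510 against 20.2 ± 0.599 FPKM, SD, n = 3 and 2). The acetyltransferase gene Ep300 was 1.63-fold higher.

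Of 15 tested co-repressors of RBPJ and HES factors, 5 were higher and 8 lower. Fhl1, of which the KyoT2 isoform binds RBPJ, was 21.8-fold lower in STO cells, as a sum over 4 transcripts whose forms were not told apart here. Tle4, a Groucho co-repressor of HES proteins, was at 24.6 and 26.0 FPKM in NSCs and at 3.36, 3.97 and 3.41 FPKM in STO cells, a 7.07-fold difference. Spen, which recruits co-repressors to RBPJ, was 2.30-fold lower, and Ctbp2 1.72-fold lower.

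Of 10 genes of receptor turnover and inhibition, 6 were higher, 2 lower and 2 did not pass. Dtx1, a Deltex ubiquitin ligase that is itself known as a Notch target, was at 19.6 and 22.8 FPKM in NSCs and at 0, 0 and 0.00783 FPKM in STO cells (-4.47 on the log2(FPKM + 1) scale, with the NSC values alone above the minimum level). Numbl, a Numb-type inhibitor of the receptor, went the other way, at 8.84 and 8.74 FPKM in NSCs and 29.5, 28.0 and 28.6 FPKM in STO cells, and Dtx3l and Dtx2 were 3.11-fold and 1.94-fold higher there. The value of Dtx2 depended on how its 4 transcripts were summed, at 0.87 on the log2(FPKM + 1) scale for their sum and 2.98 for the top transcript only. The proneural genes Neurog1, Neurog2, Atoh1, Neurod1 and Neurod4, a class that HES factors are known to repress, were all low, the highest value of any being 0.663 FPKM for Neurod1 in NSC replicate 1.

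**Figure D5:**
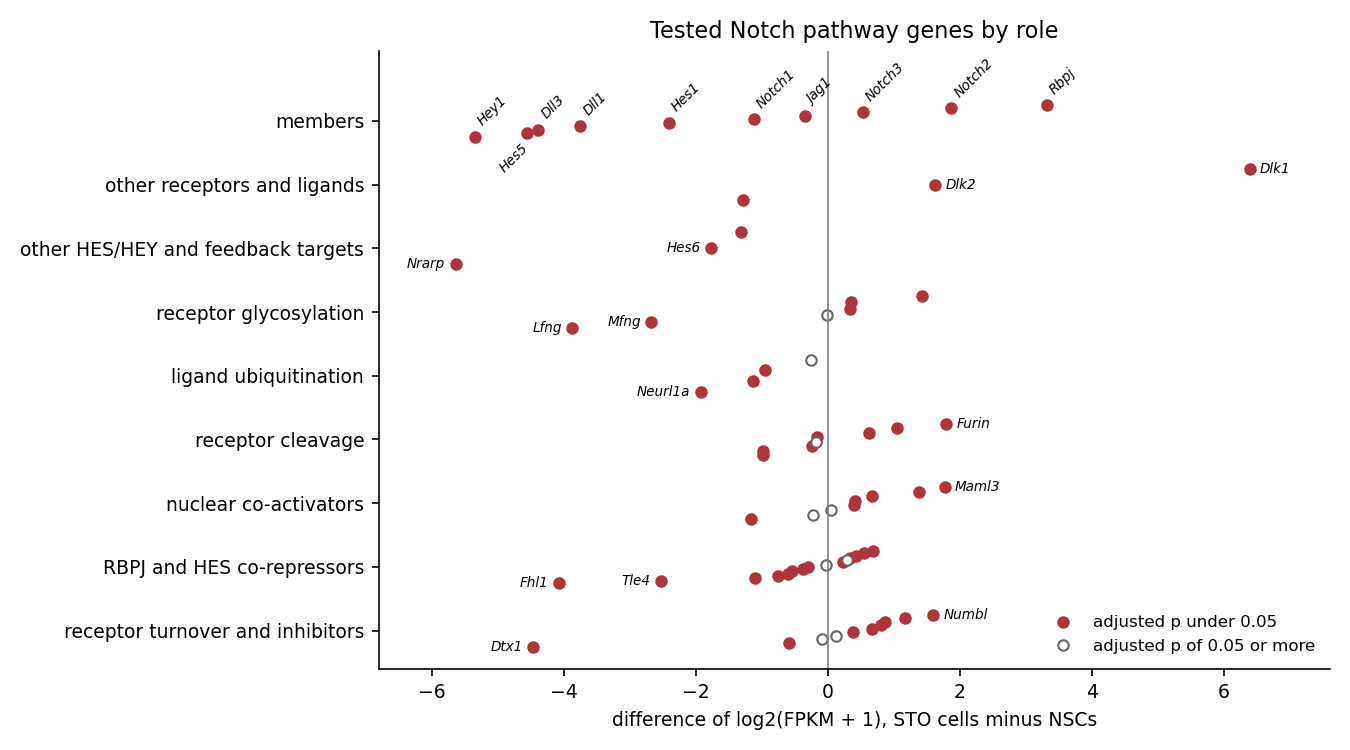
Difference of log2(FPKM + 1) between STO cells and NSCs for the tested genes of the roles shown, 1 row per role, with filled points for an adjusted p under 0.05 and names for the members and for genes that differed by more than 1.5. Nrarp, Lfng, Mfng, Dtx1 and Fhl1 lie far to the left with the members Dll1, Dll3, Hes5 and Hey1, at -5.63 to -2.67. Dlk1 lies farthest to the right at 6.39.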

How the data were processed

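RNA-seq was examined in 2 NSC and 3 STO samples, grouped by their labels. By the paper's methods and the submitters' processing notes, the authors aligned trimmed paired reads of stranded mRNA libraries to mm9 with Hisat2 and ran Cufflinks 2.2.1 on RefSeq. The deposited values are FPKM with confidence bounds, also in FPKM, for 40201 transcripts per sample, so depth had been divided out by the authors. Symbols were matched by transcript identifier through a GRCm38.p6 table (99.4% of transcripts). Coordinates of genes are mm9, as deposited, with 1-based starts and strands from GENCODE. Promoters are from RefSeq on GRCm38.p6.

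FPKM was summed over transcripts of 1 symbol with overlapping loci. The distance to the upper bound was taken as 2 SD of a Poisson count, which gave the fragments. Such fragments are approximate, cover counting error only and come out too low where transcripts overlap, as at Notch1. An exact 0 can also be a failed estimate.

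STO cells and NSCs were compared with limma 3.58.1 in R 4.3.3 (trend, pseudocount 1, no replicate block), over 12292 genes with a mean of at least 1 FPKM in either cell type. Fold changes on the log2(FPKM + 1) scale understate the change of genes with low values. Shares were compared by exact permutation in scipy 1.17.1, with Python 3.11.15, numpy 2.4.6, pandas 2.3.3 and matplotlib 3.10.9.

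The members and lists were chosen with earlier results of these data known. Named genes were the 10 members, all genes of the lists of other receptors and ligands and of other HES, HEY and feedback genes, and up to 4 genes of each further list with the largest difference among those that passed without overlap. Mib1, Rfng and the markers were named besides, after their values were seen. Alternatives changed the pseudocount, the minimum level, the scaling, the trend, the block, the size required, the transcript used and the samples. Some genes of the lists are not reported here.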

Additional observations from a re-analysis of the deposited data

How the results depend on the processing

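Of the 10 members, 9 kept their direction and their side of the threshold under all 14 alternatives with a fit. Among these 9, Dll1, Dll3, Hes5 and Hey1 reached the minimum level through their NSC values alone. Their direction was fixed by that minimum wherever one was set, so their stability is no support. Jag1 kept its direction, from -0.43 to -0.22, but did not pass with samples scaled to a common sum (-0.22, limma adjusted p = 0.12), nor without NSC replicate 1 (-0.27, 0.14) or NSC replicate 2 (-0.43, 0.056), where the lone NSC sample was assumed to vary like the STO samples. Members called numbered 3 higher in every fit and 6 to 7 lower when each sample was left out in turn, and the other pathway genes 22 to 24 higher and 24 to 26 lower. With a pseudocount of 0.1 the differences of Dll1, Dll3, Hes5 and Hey1 grew to -6.89, -7.51, -7.71 and -7.99, since their STO values lay at or near 0. Requiring a log2 difference of at least 1 left 9 other pathway genes higher and 14 lower, and 2103 of all genes higher and 2617 lower. Of the other pathway genes named by the rule, Mib2 did not pass with its top transcript only (-0.47, limma adjusted p = 0.11), and no other call was lost. With the top transcript only, Dtx2 moved from 0.87 to 2.98 and Poglut1 from 0.36 to 1.07, and the difference of Dlk2 (1.63) was 1.00 without NSC replicate 1. Scaling to a common sum moved the median gene from -0.023 to 0.14, and no member changed direction. Over all genes that scaling gave 6175 higher and 5083 lower, against 5153 and 5375. NSC and STO samples share the replicate numbers 1 and 2, and nothing says that these pair them. Deviations of same-numbered samples from their cell type's mean correlated at 0.011 and 0.060. With the replicate number as a block, 3 members were higher and 7 lower, as without it, and 4994 and 5252 of all genes. With each sample left out in turn, the STO share minus the NSC share stayed between -40.9 and -39.0 percentage points for Notch1, 82.6 and 84.7 for Jag1, and 73.3 and 74.5 for Hes1. Depth limits the low STO values, where 3 fragments were worth up to 0.103 FPKM for Hes5.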
